A study of Caenorhabditis elegans with 2 samples.

Results

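The peaks described here are moderately enriched sites of DIE-1-GFP at promoters of protein-coding genes that did not enter the list of reproducible peaks of the authors. They were selected on the signal of the pooled peak list, the enrichment value that the authors gave each peak, on a scale the labels do not state. A peak was included when its pooled signal was at least 50 and below 70, and its summit lay over 200 bp from every tRNA, snoRNA, snRNA, rRNA and miRNA gene. The summit also had to lie between 1000 bp upstream and 300 bp downstream of the start of a protein-coding transcript. Of 29979 nuclear peaks in the pooled list, 2153 had a signal in this range. Of these, 98 lay within 200 bp of a short RNA gene and were left out, and 959 of the remaining 2055 lay at a protein-coding start. These 959 are called weaker promoter peaks.

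All samples came from 1 Caenorhabditis elegans line, strain RW10316, which stably carries DIE-1 with GFP and FLAG fused to its C-terminal end. Whole young adult hermaphrodites were collected 64 hours after synchronization as starved L1 larvae, and chromatin was sonicated and precipitated with an anti-GFP antibody. There was 1 group with 2 biological replicates, so the study holds no contrast between conditions, and no test between groups was possible. The promoter that drives the transgene, its copy number and the control used for peak calling are not stated in the labels. Because whole animals were used, a site bound in few cells and a site bound weakly in many cells cannot be told apart.

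DIE-1 is a C2H2 zinc finger transcription factor. In the worm it is known for its part in shape changes of the embryonic epidermis, through which the embryo encloses itself and elongates, and for the left and right difference between the ASE taste neurons. Chromatin immunoprecipitation followed by sequencing recovers DNA that lies near a tagged protein, and a peak is a place where more fragments were recovered than in a control. In relaxed peak lists many entries are weak, and the presence of a summit in separate replicate lists is one measure of which of them recur.

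The DNA at the summits shows what kind of sequence these peaks sit on. The windows below are RefSeq reference sequence (build WBcel235, the same as ce11) reaching 100 bases to either side of the summit and written 5′ to 3′ on the strand of the gene. The first 5 are those that hold a motif among 8 peaks that ranked high by the weaker of their replicate signals, chosen as given with the processing. The window of die-1, the gene of the tagged protein, was added after its values had been seen. Capitals mark matches to any of 10 short motifs on either strand. The windows lie at chrIV:13239785-13239985 (rpl-12, minus strand), chrII:11290497-11290697 (C47G2.3, minus strand), chrX:14747062-14747262 (C05G5.2, plus strand), chrIV:11401620-11401820 (his-58, minus strand), chrII:10542093-10542293 (pro-1, minus strand) and chrII:10068287-10068487 (die-1, minus strand).
rpl-12: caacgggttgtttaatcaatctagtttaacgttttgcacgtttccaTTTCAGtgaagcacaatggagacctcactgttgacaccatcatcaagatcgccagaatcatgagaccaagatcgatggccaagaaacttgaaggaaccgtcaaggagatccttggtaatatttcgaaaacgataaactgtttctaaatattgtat
C47G2.3: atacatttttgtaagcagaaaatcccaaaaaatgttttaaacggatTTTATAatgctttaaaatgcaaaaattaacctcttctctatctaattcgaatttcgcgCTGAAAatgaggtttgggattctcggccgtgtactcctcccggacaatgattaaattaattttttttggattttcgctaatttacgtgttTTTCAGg
C05G5.2: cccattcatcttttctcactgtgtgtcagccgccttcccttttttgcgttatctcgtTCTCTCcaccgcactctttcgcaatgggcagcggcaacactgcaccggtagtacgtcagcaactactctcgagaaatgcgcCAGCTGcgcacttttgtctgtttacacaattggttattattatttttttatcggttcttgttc
his-58: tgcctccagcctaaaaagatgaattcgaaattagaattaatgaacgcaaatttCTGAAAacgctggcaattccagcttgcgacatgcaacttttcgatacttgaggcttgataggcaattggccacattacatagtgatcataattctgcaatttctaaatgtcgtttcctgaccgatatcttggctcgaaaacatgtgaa
pro-1: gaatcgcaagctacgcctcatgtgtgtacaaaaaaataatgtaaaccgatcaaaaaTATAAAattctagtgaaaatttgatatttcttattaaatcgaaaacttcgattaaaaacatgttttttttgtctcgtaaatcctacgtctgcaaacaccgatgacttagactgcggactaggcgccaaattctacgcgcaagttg
die-1: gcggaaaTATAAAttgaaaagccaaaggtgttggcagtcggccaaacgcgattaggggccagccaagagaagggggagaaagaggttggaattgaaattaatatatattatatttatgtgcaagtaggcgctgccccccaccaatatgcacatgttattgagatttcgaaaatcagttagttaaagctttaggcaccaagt
The rpl-12 window has a splice acceptor word, TTTCAG, before its middle, and its reverse complement, CTGAAA, stands in the C47G2.3 and his-58 windows. TATAAA or its reverse complement, the core of a TATA box, stands in C47G2.3, pro-1 and die-1. C05G5.2 holds a GAGA repeat on the other strand, TCTCTC, and the E box CAGCTG. The GC content of these windows was 39.3% at rpl-12, 32.3% at C47G2.3, 46.8% at C05G5.2, 38.8% at his-58, 34.8% at pro-1 and 41.8% at die-1. No motif was shared by all 6 windows.

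The next 3 windows are the rest of those 8 and hold none of the 10 motifs. They lie at chrV:13380290-13380490 (ifbp-1, minus strand), chrV:5790930-5791130 (F44E7.9, plus strand) and chrV:13259496-13259696 (C34D1.4, minus strand).
ifbp-1: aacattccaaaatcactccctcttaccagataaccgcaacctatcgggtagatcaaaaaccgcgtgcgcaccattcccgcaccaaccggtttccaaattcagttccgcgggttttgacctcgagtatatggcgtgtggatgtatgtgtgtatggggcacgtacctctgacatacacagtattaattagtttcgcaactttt
F44E7.9: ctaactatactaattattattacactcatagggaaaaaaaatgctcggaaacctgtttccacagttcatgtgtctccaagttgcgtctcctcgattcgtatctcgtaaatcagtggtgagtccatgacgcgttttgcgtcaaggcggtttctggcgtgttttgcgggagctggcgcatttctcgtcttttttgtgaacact
C34D1.4: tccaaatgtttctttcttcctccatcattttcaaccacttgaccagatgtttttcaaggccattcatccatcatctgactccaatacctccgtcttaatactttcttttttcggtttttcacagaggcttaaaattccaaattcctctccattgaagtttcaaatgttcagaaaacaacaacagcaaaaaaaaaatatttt
Their GC content was 46.8%, 44.3% and 33.8%. The absence of a match says only that these letters are not in the window.

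Most weaker promoter peaks had a nearby summit in both full replicate lists. A summit within 200 bp of the pooled summit was found in both for 917 of 959 peaks, or 95.6%. Over all 29979 nuclear peaks of the pooled list the share was 38.2%, and it is the background against which the count stands. With summits required within 50 bp the count was 483 of 959, and with only the strongest 5000 peaks of each replicate list it was 340 of 959, fewer than the peaks not found. Among peaks of the same signal outside promoters it was 1017 of 1096, or 92.8%, and among reproducible promoter peaks away from short RNA genes it was 422 of 423, or 99.8%. The pooled signal was made from the same reads as the replicate lists, so these shares describe the peaks and no test was made of them. The bases within 200 bp of a summit made up 8.96% of the nuclear genome for the replicate 1 list, 11% for the replicate 2 list and 3.81% for both together. The replicate lists held 23789 and 29268 peaks.

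Support rose with signal inside the range. In both replicate lists a summit was found for 347 of 370 peaks with a signal from 50 to below 55 (93.8%), 238 of 249 from 55 to 60 (95.6%), 181 of 188 from 60 to 65 (96.3%) and 151 of 152 from 65 to 70 (99.3%). Across the wider range of promoter peaks, the share was 13.2% of 5432 peaks from 18 to 30, 54.4% of 2268 from 30 to 40, 79.2% of 1202 from 40 to 50, 95.6% of 959 from 50 to 70 and 97.7% of 177 from 70 up to the reproducible list. Peaks outside promoters followed the same order, at 11.4%, 50.4%, 76.9%, 92.8% and 98.9%. The weaker promoter peaks stood next to the reproducible promoter peaks in this measure and apart from the many peaks of low signal. Since the peaks were selected on pooled signal, with which this share rose, their place follows from the selection. The reproducible list began at a signal of 79.4, and none of the 959 was in it.

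**Figure D1:**
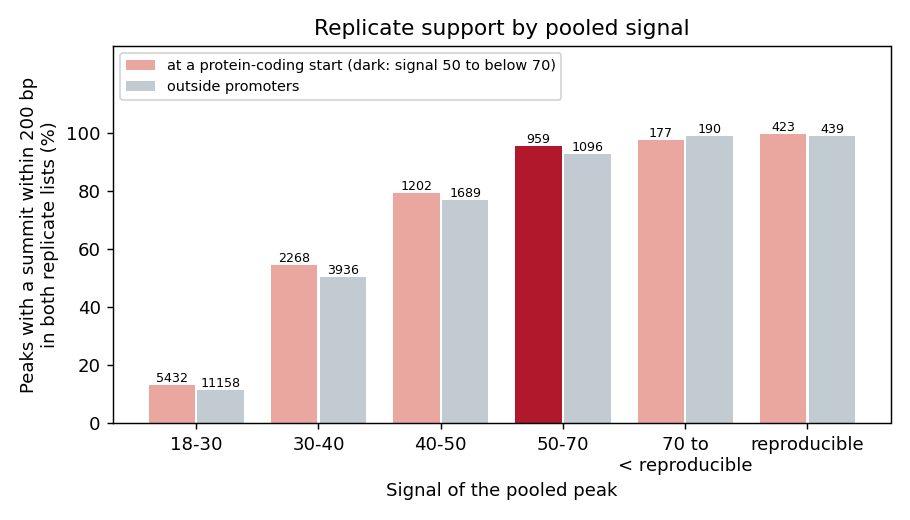
Share of pooled peaks (y axis, %) with a summit within 200 bp in both replicate lists, by pooled signal (x axis), for peaks at a protein-coding start (left bars) and outside promoters (right bars), with the number of peaks above each bar. The dark bar is the weaker promoter peaks, at 95.6%, and the bars of low signal, at 13.2% and 11.4%, are far below it.

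The replicates differed in level. In the 917 peaks found in both, the signal in replicate 1 ranged over 11.5 to 73.1 with quartiles of 20.5, 25 and 31.4, and in replicate 2 over 12.5 to 76.0 with quartiles of 27.1, 32.2 and 37.6. Replicate 2 was higher at 633 of them (69.0%), with a median ratio of replicate 2 to replicate 1 of 1.28. The same ratio, again over peaks found in both lists, was 1.26 at reproducible promoter peaks and 1.2 among all nuclear peaks. Replicate 2 was thus higher in each of these sets. At 164 peaks replicate 2 was over 2 times replicate 1, and at 34 peaks the reverse held. Both signals were above the median of their own list, 16.3 and 18.6, at 790 peaks (86.2%). The summits lay a median of 24 bp from the pooled summit in replicate 1 and 11 bp in replicate 2.

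The replicate signals added to within 10% of the pooled signal at 736 of the 917 peaks, with a median sum of 0.996 of it. Since the peaks were selected within a narrow range of pooled signal, a high value in one replicate went with a low value in the other, and no correlation between them is given. The other peaks departed further from this sum. At rpl-32, a protein of the large ribosomal subunit, the pooled signal was 52.2 while the nearest summits had 17.5 in replicate 1 and 72.4 in replicate 2. At 61 of the 917 peaks at least 1 replicate summit lay nearer to another pooled peak, and rpl-32 and rpl-12 are among them. The other 856 (93.3%) had their own summit in both lists.

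**Figure D2:**
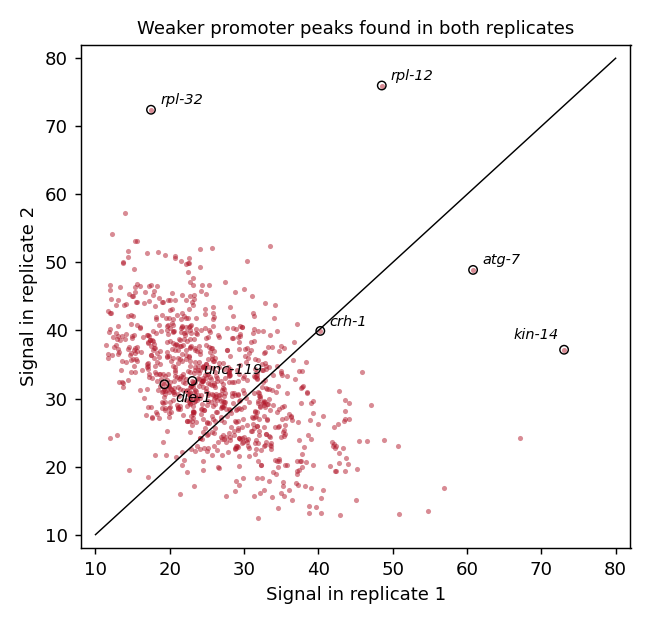
Signal of the nearest summit in replicate 1 (x axis) and replicate 2 (y axis) for the 917 weaker promoter peaks found in both, 1 point per peak, with the line of equal signal and 7 genes circled. Most points (633) lie above the line, and rpl-12, rpl-32, atg-7 and kin-14 stand outside the cloud.

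The 12 peaks that ranked highest by the weaker of their replicate signals belong to genes of varied function. A high rank can rest on a replicate summit that lies nearer to another pooled peak, as at 6 of the first 25. The first was at atg-7, an activating enzyme of autophagy (chrIV:11081101-11081536, 264 bp upstream of the start, in an annotated 3′ UTR). Its signal was 63.0 in the pooled list, 60.8 in replicate 1 and 48.9 in replicate 2. The second was at rpl-12, a large subunit ribosomal protein (chrIV:13239667-13240102, 5 bp upstream, in a coding exon), with 53.0 pooled, 48.5 in replicate 1 and 76.0 in replicate 2. The fourth was at kin-14, a tyrosine kinase (chrI:7079700-7080135, 343 bp upstream), with 52.1 pooled, 73.1 in replicate 1 and 37.2 in replicate 2. These 3 summits lay 224, 200 and 208 bp from a reproducible summit, and at each of them at least 1 replicate summit lay nearer to another pooled peak.

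The third was at crh-1, the worm homolog of CREB, a transcription factor that responds to cyclic AMP (chrIII:11689223-11689658, 71 bp upstream, in an intron). It had a signal of 69.9 pooled, 40.3 in replicate 1 and 39.9 in replicate 2, and its nearest reproducible summit was 103360 bp away. Its replicate summits were 20 and 155 bp off, and at least 1 of them lay nearer to another pooled peak. At dnj-28, a J domain protein, the peak (chrI:2996284-2996395, 94 bp upstream) had 67.5 pooled, 37.1 and 41.0 in the replicates and was the narrowest, at 112 bp. The other 958 peaks were each 436 bp wide.

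At Y48G8AL.13, a TLC domain protein, the peak (chrI:1226344-1226779, 250 bp downstream, intron) had 52.1 pooled, 36.8 in replicate 1 and 38.4 in replicate 2. At eri-1, an exonuclease known to restrain RNA interference, it lay in a coding exon shortly downstream of the start (chrIV:419639-420074), with 69.9 pooled, 36.6 in replicate 1 and 35.6 in replicate 2. At C47G2.3, which RefSeq names as the mitochondrial import subunit tim-22, the peak (chrII:11290379-11290814, 438 bp upstream) had 69.0 pooled, 35.4 and 37.4 in the replicates. The replicates were close together at all 3 of these genes. An order by the weaker replicate signal, within a narrow range of pooled signal, favours such peaks.

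At ifbp-1, a zinc finger protein of the interferon regulatory factor binding family, the peak (chrV:13380172-13380607, 128 bp upstream) had 69.6 pooled, 38.4 in replicate 1 and 35.3 in replicate 2. At cyn-5, a prolyl isomerase, it had 61.7 pooled, 35.0 and 37.7 in the replicates (chrI:15041532-15041967, 476 bp upstream). At C05G5.2, a WASH complex subunit by its RefSeq name, it had 69.6 pooled, 34.8 and 37.0 in the replicates (chrX:14746944-14747379, 141 bp upstream). At F44E7.9, a Rab5-interacting protein whose peak also lies at the start of the nuclear receptor gene nhr-142, it had 68.0 pooled, 34.5 and 34.8 in the replicates (chrV:5790812-5791247, 200 bp upstream). These 4 peaks each had their own summit in both lists, within 77 bp of the pooled summit.

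The next 13 genes in this order were ndk-1, his-58, pro-1, C34D1.4, tag-151, imp-3, eif-2alpha, aars-1, eif-3.J, Y75B12B.3, Y55B1AR.2, F11G11.5 and arl-13. Among them, 2 make proteins for pre-rRNA processing: pro-1, with 65.7 pooled, 35.0 in replicate 1 and 34.1 in replicate 2, and tag-151, with 64.0, 37.4 and 34.0. A further 3 serve translation, namely eif-2alpha, eif-3.J and the alanyl-tRNA synthetase aars-1. At eif-2alpha and imp-3 at least 1 replicate summit lay nearer to another pooled peak. The histone gene his-58, for H2B, had 66.3 pooled, 34.1 in replicate 1 and 43.7 in replicate 2. Across these 13 the lower replicate signal ran only over 33.4 to 34.4, so their order within the group carries little.

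The position of the summits was described next. Of the 959 summits, 744 (77.6%) lay upstream of the nearest start, with quartiles of 439, 179 and 16.5 bp upstream, and 240 (25%) lay within 100 bp of it. At reproducible promoter peaks 90.1% lay upstream, with quartiles of 448, 227 and 110 bp upstream. At or downstream of the start lay 22.4% of the weaker summits, against 9.93% of the reproducible ones. By annotation 484 summits (50.5%) were outside genes, 177 (18.5%) in introns, 181 (18.9%) in coding exons, 68 (7.09%) in 3′ UTRs and 49 (5.11%) in 5′ UTRs. Outside genes stood 70.2% of reproducible promoter summits and 32.4% of all nuclear summits.

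**Figure D3:**
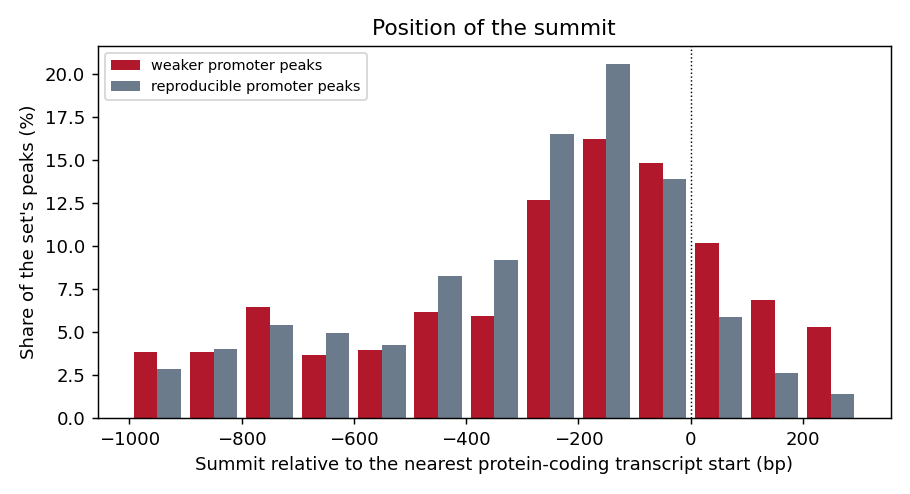
Share of summits (y axis, %) in 100 bp bins of distance to the nearest protein-coding transcript start (x axis, bp, negative upstream), for the 959 weaker promoter peaks (left bars) and the 423 reproducible promoter peaks (right bars). Both peak between 100 and 200 bp upstream, at 16.2% and 20.6%, and the weaker peaks have larger shares in all bins past the start.

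The share outside genes changed in steps with signal among promoter peaks. It was 35.8% from 18 to 30, 39.1% from 30 to 40, 43.0% from 40 to 50, 50.5% from 50 to 70, 56.5% from 70 up to the reproducible list and 70.2% in that list. The share in coding exons fell in the same order, at 29.6%, 27.4%, 25.9%, 18.9%, 11.9% and 5.67%. The rule used the signal, and these are descriptions along it. Starts on both strands, as at divergent gene pairs, were found for 147 weaker promoter peaks (15.3%) and for 22.5% of reproducible promoter peaks.

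By chromosome, the weaker promoter peaks were densest on chromosome III, with 191 peaks or 13.9 per Mb, and on I, with 182 or 12.1 per Mb. Chromosome II had 156 (10.2 per Mb), IV had 174 (9.95 per Mb), V had 145 (6.93 per Mb) and X had 111 (6.26 per Mb). Chromosome X held 11.6% of the weaker promoter peaks and 18% of the reproducible promoter peaks, and it makes up 17.7% of the nuclear sequence. It holds 13.7% of protein-coding genes, while V holds 25% of the genes and 15.1% of the weaker promoter peaks. The share found in both replicates was between 92.9% and 97.9% on every chromosome.

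The composition of the DNA also lay between that of weak and reproducible peaks. The median GC content within 50 bp of the summit was 43.6% (quartiles 36.6% and 50.5%) at weaker promoter peaks, 49.5% at reproducible promoter peaks and 41.6% at all nuclear peaks. Along the signal ranges of promoter peaks it was 38.6%, 40.6%, 42.6%, 43.6%, 45.5% and 49.5%. Outside promoters it was 40.6%, 42.6% and then 44.6% in each of the 4 higher ranges. Its part in the signal was not tested.

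In all, 10 motifs were searched on both strands of the window that reaches 50 bp to either side of the summit. GAGAGA was found at 158 weaker promoter peaks (16.5%), against 22% of reproducible promoter peaks, 14.7% of peaks of the same signal outside promoters and 9.6% of all nuclear peaks. CTGCGTC was found at 54 (5.63%), against 8.04%, 3.01% and 2.14% in the same order. CACGTG was found at 49 (5.11%), against 5.67%, 4.38% and 2.96%. These 3 words were more frequent than in all nuclear peaks, as were GGGCGG at 52 peaks (5.42%, against 3.42%), CAGCTG at 39 (4.07%, against 2.99%) and ATTTGCAT at 7 (0.73%, against 0.707%), the last by a negligible margin. TTTCAG went the other way, at 123 peaks (12.8%), against 6.86% of reproducible promoter peaks and 15.2% of all nuclear peaks. TATAAA was found at 83 (8.65%, against 9.18% of all), and in windows reaching 100 bp to either side its order turned round (18.5%, against 17.9%). Also less frequent than in all nuclear peaks were TGATAA, at 65 (6.78%, against 7.69%) and GTTCGANNC, the B box of tRNA genes, at 8 (0.834%, against 1.82%). GTTCGANNC was found at 1.65% of reproducible promoter peaks and at 1.64% of peaks of the same signal outside promoters. Summits near tRNA genes had been left out of these sets as well as of the weaker promoter peaks. Why the shares differ was not tested. A match is a description of the letters and not a binding site.

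**Figure D4:**
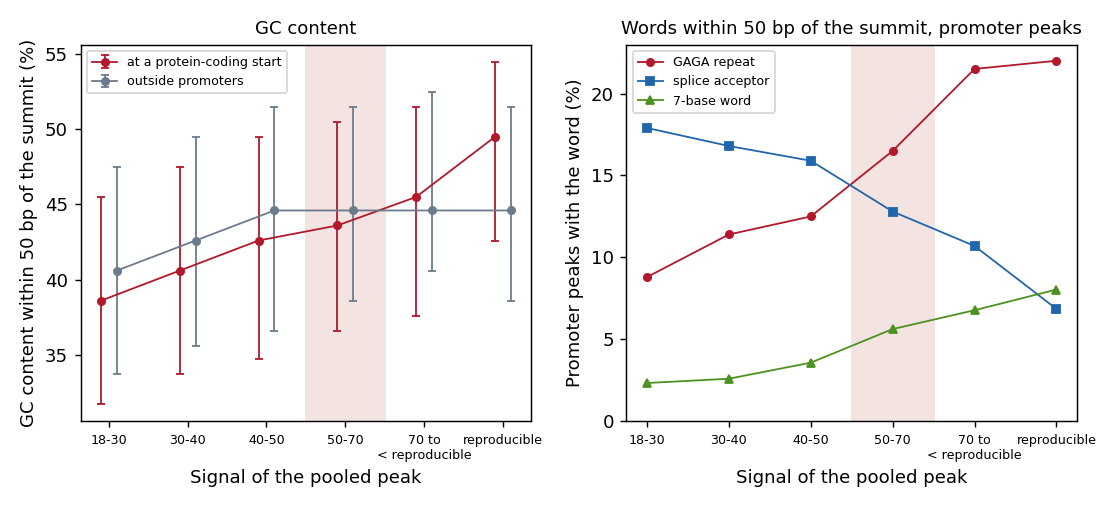
Left, median GC content within 50 bp of the summit (y axis, %) with quartiles as bars, by pooled signal (x axis), for peaks at a protein-coding start and outside promoters. Right, share of promoter peaks (y axis, %) with the GAGA repeat, the splice acceptor word and the 7-base word CTGCGTC in the same ranges. Shading marks the weaker promoter peaks, where GC was 43.6% and the GAGA repeat share 16.5%, between the low signal ranges and the reproducible list.

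The 917 peaks found in both replicates lay at the starts of 1054 protein-coding genes, 5.28% of the 19973 nuclear ones, which is the background for the gene lists below. A gene was counted for each start in the window, so 1 peak can count for neighbouring genes, and 883 genes were nearest to a peak. Of the 1054 genes, 64 (6.07%) also had a reproducible promoter peak, against 519 of all 19973 genes (2.6%). These 64 made up 12.3% of the 519, against the 5.28% of all genes that had a weaker promoter peak found in both. Each share was above that over all genes, though most genes found here had no reproducible promoter peak away from short RNA genes. Reproducible peaks near short RNA genes or outside promoters were not counted, here or for the gene lists below. At 42 genes there were 2 or more such peaks, among them daf-16, cmd-1 for calmodulin, ptc-1 for a patched receptor and kin-1 for protein kinase A. ZK470.2 had 3. These names were chosen after their values had been seen.

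Genes of the translation machinery were frequent. Of 50 genes in the list of large subunit ribosomal proteins, 13 (26%) had a weaker promoter peak found in both replicates, with a median pooled signal of 53.2. One of them, rpl-24.2, is named by RefSeq as a ribosome biogenesis protein. Besides rpl-12, rpl-5 had 57.7 pooled, 25.4 in replicate 1 and 33.2 in replicate 2, and rpl-23 had 51.3, 27.6 and 23.5. Replicate 2 was higher at 11 of the 13. Counting only the gene with the nearest start, the list had 10 (20%). A reproducible promoter peak stood at 22% of the list. Small subunit proteins had 4 of 31 (12.9%), among them rps-23 (63.8 pooled, 27.9 and 33.8 in the replicates) and rps-2 (53.2, 26.3 and 22.4). At rps-23 and rps-29 another gene has the nearer start. Counting only the gene with the nearest start, small subunit proteins had 2 (6.45%, against 4.42% over all genes). A reproducible promoter peak stood at 7 of the 31 (22.6%), more than had a weaker one found in both replicates.

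Mitochondrial ribosomal proteins had 10 of 70 (14.3%) and no reproducible promoter peak away from short RNA genes. Examples are mrpl-19, with 53.5 pooled, 27.3 in replicate 1 and 29.1 in replicate 2, and mrps-14, with 65.6, 25.4 and 36.8. Translation factors had 9 of 42 (21.4%), with 5 of 42 (11.9%) for reproducible promoter peaks. Beside eif-2alpha and eif-3.J, eef-1B.1, a subunit of elongation factor 1, had 2 peaks of 68.2 and 54.0 pooled signal, and the germline eIF-5A gene iff-1 had 1 of 50.1. The peak of 68.2 is nearer to the start of aco-2. Aminoacyl-tRNA synthetases, which charge tRNAs, had 3 of 31 (9.68%), namely aars-1, qars-1 and sars-1, the last at a peak nearer to C47E12.2.

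Genes for making and breaking other proteins and RNAs followed. The proteasome, which degrades tagged proteins, had 7 of 33 genes (21.2%) and no reproducible promoter peak. Its lid subunit gene rpn-11, for the deubiquitinase, had 64.1 pooled, 33.3 in replicate 1 and 29.9 in replicate 2, and rpn-6.1 had 61.0, 22.9 and 37.7. The spliceosome list had 8 of 51 (15.7%), including prp-8, with 66.6 pooled, 34.7 and 28.4 in the replicates, and mog-1 with 57.9, 29.4 and 29.6. RNA polymerases and mediator had 7 of 66 (10.6%), including rpc-2 of polymerase III with 58.5 pooled, 31.4 and 27.3 in the replicates, and mdt-18 with 53.4, 28.8 and 26.6. Chaperones had 8 of 69 (11.6%), including the mitochondrial hsp-6 with 68.5 pooled, 33.2 and 37.6 in the replicates, at a peak nearer to C37H5.5. Counting only the gene with the nearest start, chaperones had 5 (7.25%). Chaperones differed from most of these lists in that more genes, 18.8%, had a reproducible promoter peak. The same held for small subunit ribosomal proteins (22.6%) and ubiquitin conjugation genes (10.9%). Ubiquitin conjugation genes, at 4 of 64 (6.25%), stood near the background.

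Mitochondrial and vacuolar energy genes were also above the background share. Respiratory chain and ATP synthase genes of the nucleus had 13 of 73 (17.8%). Examples are ndub-8 of complex I, with 63.9 pooled, 44.1 in replicate 1 and 27.0 in replicate 2, and nduc-2, with 52.5, 32.1 and 28.7. The cytochrome c gene cyc-2.1 had 2 peaks, of 69.5 and 53.6. The vacuolar proton pump had 4 of 21 (19.0%), with vha-8 at 57.3 pooled, 27.4 and 30.8 in the replicates. At vha-8 another gene has the nearer start.

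Genes of the nucleus and of cell division came next. Nuclear pore and transport genes had 9 of 47 (19.1%), including the importin gene imb-3 with 57.9 pooled, 31.9 and 39.9 in the replicates. Cell cycle and replication genes had 16 of 92 (17.4%). Among them, the spindle checkpoint gene mdf-1 had 69.1 pooled, 29.4 in replicate 1 and 39.1 in replicate 2, the kinetochore gene knl-1 had 50.6, 27.2 and 30.3, and cdk-1, the mitotic kinase, had 50.1, 28.9 and 28.3 at a peak it shares with iff-1. Chromatin regulators had 14 of 114 (12.3%), including the remodeler chd-1 with 68.0 pooled, 30.3 and 50.2 in the replicates, and the methyltransferase set-4 with 65.8, 29.4 and 34.9. Histone genes had 7 of 81 (8.64%) at 5 peaks, since divergent pairs such as his-31 and his-32 share a peak. Histone genes exist in near-identical copies, and how the authors treated reads that match several copies is not stated in the labels. Germline and P granule genes had 7 of 71 (9.86%), including spo-11, which makes meiotic breaks (69.9 pooled, 35.1 and 28.7 in the replicates), and pgl-1 of P granules (54.9, 26.4 and 29.8).

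Trafficking genes had 15 of 136 (11%), including the cilium gene arl-13 with 63.4 pooled, 35.0 and 33.4 in the replicates, and the coatomer gene copz-1 with 55.2, 28.6 and 32.4. At copz-1 another gene, cyn-4, has the nearer start. Cytoskeleton and muscle genes had 9 of 98 (9.18%), the same count and share as for reproducible promoter peaks. The myosin light chain gene mlc-3 had 69.2 pooled, 39.0 in replicate 1 and 29.4 in replicate 2, and the muscle attachment gene unc-112 had 66.6, 37.7 and 29.4.

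Epidermal genes, which bear on the known role of DIE-1, had 8 of 50 (16%) with a weaker promoter peak and 1 of 50 (2.0%) with a reproducible one. The 8 were mab-10, gex-2, gex-3, vab-10, vab-1, hmp-1, die-1 and mab-21. At die-1, reads from the native gene and from the transgene cannot be told apart. gex-2 and gex-3 belong to the WAVE complex that drives actin during enclosure, and their peaks lay 70 and 81 bp upstream. The gex-2 peak had 51.1 pooled, 26 in replicate 1 and 23.0 in replicate 2, and the gex-3 peak had 68.4, 22.7 and 40.6. hmp-1 is the worm alpha-catenin of cell junctions, and its peak, 798 bp upstream, had 61.5 pooled, 45.2 in replicate 1 and 19.7 in replicate 2. vab-10 encodes a spectraplakin (53.9, 20.9 and 38.1) and vab-1 an Eph receptor (50.7, 20.1 and 28.0). mab-10 had 50.7, 23.1 and 29.97 and mab-21 had 52.8, 14.7 and 36.7. The peaks of vab-10, vab-1 and mab-10 lay 750, 762 and 798 bp upstream, and those of die-1 and mab-21 470 and 263 bp upstream. The median pooled signal of these 8 peaks was 52.8, against 57.1 over all 917.

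Cuticle collagens, which the epidermis secretes, had 9 of 175 (5.14%), close to the background. Among them dpy-13 had 51.1 pooled, 28.6 in replicate 1 and 29.3 in replicate 2, at a peak nearer to zipt-2.2. Of 48 genes in a list of regulators of ASE asymmetry, 2 (4.17%) had a peak, die-1 itself and the corepressor gene unc-37, with 52.1 pooled, 23.2 in replicate 1 and 29.5 in replicate 2. No gene of that list had a reproducible promoter peak. Wnt pathway genes had 3 of 29 (10.3%): the casein kinase gene kin-19, the Nemo-like kinase gene lit-1 and the beta-catenin gene sys-1, the last with 58.8 pooled, 20.01 in replicate 1 and 38.5 in replicate 2.

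Among transcription factors, bZIP genes had the highest share of all 36 lists. Of 28, 8 (28.6%) had a weaker promoter peak found in both replicates, against 10.7% with a reproducible one, and they were 38.1% of the bZIP genes with any pooled promoter peak. Over all genes with any pooled promoter peak that share was 13.0%. The 8 were crh-1, jun-1, zip-11, skn-1, zip-4, zip-2, zip-1 and atf-4. jun-1, the worm Jun, had 52.6 pooled, 24.5 in replicate 1 and 31.7 in replicate 2, zip-11 had 57.1, 24.4 and 32.6, and skn-1, the Nrf factor of oxidative stress and early endoderm, had 50.2, 29.4 and 24.2. zip-2, known for a response to blocked translation, had 61.5, 22.6 and 50.7, and zip-4 had 69.0, 23.3 and 45.2. atf-4, the factor of the integrated stress response, had 50.1, 19.4 and 30.7, and zip-1 had 56.0, 21.6 and 36.6. With 28 genes, each gene moves the share by several percentage points.

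Other lists of transcription factors were lower. Nuclear hormone receptors had 10 of 274 (3.65%), homeobox genes 4 of 104 (3.85%) and the listed C2H2 zinc finger genes 4 of 65 (6.15%). The C2H2 list holds only factors with a named gene, so its count is not one of the whole family. The homeobox genes were ceh-83, unc-62, ceh-39 and irx-1, and the zinc finger genes of the list were ztf-8, mep-1, sdc-1 and die-1. Insulin signalling and stress genes had 4 of 61 (6.56%), among them the FOXO gene daf-16, whose 2 peaks at different starts had 66.7 and 66.0 pooled, 30.6 and 30.9 in replicate 1 and 36.0 and 37.1 in replicate 2. These peaks lay close to each other in level in each replicate.

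The lists of chemoreceptors, C-type lectins, F-box, detoxification, neuronal, intestine, sperm and pharynx genes were below the background. Chemoreceptor genes had 10 of 1300 (0.769%), and 6.02% of those with any pooled promoter peak. C-type lectins had 1 of 240 (0.417%), F-box genes 6 of 322 (1.86%), detoxification genes 6 of 229 (2.62%), neuronal genes 9 of 228 (3.95%) and intestine and yolk genes 3 of 91 (3.3%). Major sperm protein genes had 0 of 43 and pharynx genes 0 of 30. Among the neuronal genes, the kainate receptor gene glr-6 had 60.1 pooled, 30.2 in replicate 1 and 35.4 in replicate 2, and the neuropeptide gene nlp-12 had 65.8, 29.7 and 40.5. In all, 24 of 36 lists were above the share over all genes. Only 8122 of the 19973 genes had any pooled promoter peak, and among these the share was 13.0%. On that measure ubiquitin conjugation (11.8%), insulin signalling (12.9%) and the listed C2H2 zinc finger genes (9.76%) fell below it. Cuticle collagens (14.3%) rose above it, and so, by little, did the ASE asymmetry list (13.3%, 2 of 15 genes). Aminoacyl-tRNA synthetases (13.0%), small subunit proteins (14.3%) and cytoskeleton genes (14.8%) stood near it. Large subunit proteins (28.3%) and translation factors (25.7%) stayed well above.

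**Figure D5:**
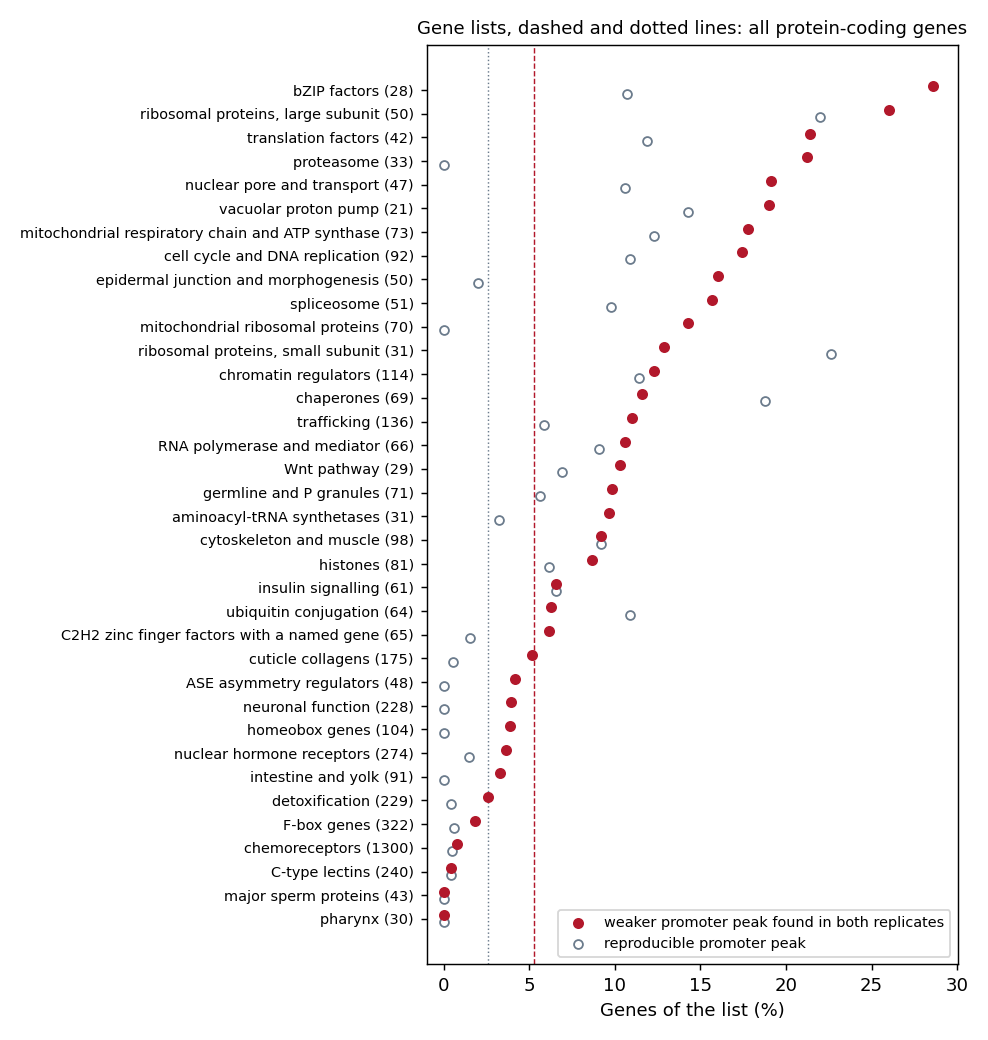
Share of the genes of each list (x axis, %) with a weaker promoter peak found in both replicates (filled points) and with a reproducible promoter peak (open points), with the number of genes of each list in brackets. The dashed and dotted lines are the shares over all protein-coding genes, 5.28% and 2.6%. Reproducible promoter peaks near short RNA genes were not counted. bZIP factors (28.6%) and large subunit ribosomal proteins (26%) stand highest, and chemoreceptors and C-type lectins lie near 0.

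The die-1 gene itself had a weaker promoter peak. It lay at chrII:10068169-10068604, 470 bp upstream of the start and outside genes, with a pooled signal of 52.7, 19.3 in replicate 1 and 32.1 in replicate 2. The replicate summits lay 24 and 7 bp from the pooled summit. A further pooled peak, 1640 bp upstream, had a signal of 34.0. The transgene carries die-1 sequence, and reads from the native gene and from the transgene cannot be told apart. The neuronal gene unc-119, often used as a marker of worm transgenes, also had a weaker promoter peak (chrIII:10901784-10902219, 639 bp upstream, 60.1 pooled, 23.0 in replicate 1 and 32.6 in replicate 2). Further pooled peaks of lower signal lay at unc-119, among them 1 of 39.2, 421 bp upstream, and 1 of 46.6 in an intron, 707 bp downstream of the start. Whether the strain carries an unc-119 marker is not stated in the labels.

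The 42 peaks not found in both replicates were mostly near misses. No peak lacked a summit in both lists, 26 lacked one in replicate 1 and 16 in replicate 2. Of the 26, 12 had a replicate 1 summit beyond 200 and up to 300 bp away and 5 had none within 1000 bp. Of the 16, 11 had a replicate 2 summit beyond 200 and up to 300 bp away and 2 had none within 1000 bp. The highest pooled signal among them was at C03A3.2, a transmembrane protein gene, with 66.3 and a replicate 1 summit 32 bp away, while the nearest replicate 2 summit was 5343 bp away. Next were rpl-24.1, a ribosomal protein gene, with 64.9 (nearest summit 547 bp away in replicate 1 and 0 bp in replicate 2), and gtsf-1, with 64.3 (209 and 15 bp).

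At the edges of the range the values ran on without a step. Just below 50 stood DH11.2 (49.98) and sam-10 (49.9997), and just inside stood F53F4.11 (50.0015) and ran-2 (50.002). At the upper edge smr-1 (69.92) and gsa-1 (69.95) were inside, and sar-1 (70.10) and rpl-16 (70.11) were above it. Of the 959 peaks, 27 overlapped a reproducible peak, 52 had a reproducible summit within 1000 bp and 618 had none within 10000 bp.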

How the data were processed

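Narrow peak lists of the authors on ce11 were used: 1 for each replicate, 1 for the pooled reads, and 1 of reproducible peaks. The signal column of the deposited lists was read unchanged as the authors' enrichment value. The q-value column, read per the layout of the deposited lists as −log10 of q, ranked nothing. The labels name no caller, aligner or reproducibility threshold, and read depths were not used. Per the labels, the antibody tag names die-1 while the description names anti-GFP.

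Summits were placed on Ensembl 115 gene models of WBcel235; RefSeq gave products, sequence and 12 gene names. A replicate value is the signal of the nearest summit within 200 bp. The software was pandas 2.3.3, numpy 2.4.6 and matplotlib 3.10.9 under Python 3.11.15, and the overlap steps were tested on simulated data.

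The peaks, gene lists and motifs were chosen with earlier results of these data known, and list entries that are not of the named family were removed after values had been seen. No test was made, since there was 1 group of 2 replicates and peaks are not replicates. Named were the 25 peaks with the highest lower replicate signal, up to 4 genes per list, the peaks at the edges of the range, the 3 strongest not found in both, and die-1. All members of the epidermal and bZIP lists, genes with several peaks, unc-119 and rpl-32 were named after their values were seen. Sequences were printed for 8 of the 25 outside chromosome I and annotated UTRs, grouped by whether they hold a motif. The windows of crh-1 and eri-1, whose summits also lie outside both and which ranked above most of these, were not printed. Alternatives were other summit distances, shorter replicate lists, 1 replicate alone, other promoter windows and signal ranges, merged peaks, the nearest start and wider motif windows.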

Additional observations from a re-analysis of the deposited data

How the results depend on the processing

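The count of 917 weaker promoter peaks found in both replicates fell to 483 when summits had to lie within 50 bp, and to 340 when only the strongest 5000 peaks of each replicate list were used. It was 771 within 100 bp, 945 within 500 bp and 748 with the strongest 10000 peaks. Leaving out 1 replicate gave 933 to 943. Chosen after seeing the data, summits nearest to the peak itself gave 856, and leaving out peaks that overlap a reproducible one gave 891. The number of peaks, 959, was 649 and 1293 with a narrower and a wider promoter window, 1327 and 695 with signal from 45 to 65 and 55 to 75, 944 with short RNA genes over 500 bp away, and 946 after merging. With the nearest start only, genes numbered 883 in place of 1054, and 24 of 36 gene lists were above all genes under both rules. Of 34 lists with a count under both, 2 moved by over 1.5 times: small subunit ribosomal proteins to 2 and chaperones to 5. Counts of all 10 motifs moved by over 1.5 times in windows reaching 100 bp to either side, which hold more sequence, and TATAAA alone among them then turned to a larger share than in all nuclear peaks (18.5%, against 17.9%). No paired analysis was possible because there was 1 group. Depth could not be weighed, since the lists hold no read totals.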
